A study of Homo sapiens with 16 samples.

Results

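Immune checkpoint ligands are surface proteins through which a tumour cell restrains or engages lymphocytes and macrophages, and the RNA of 9 such genes was followed across lung cancer lines grown in 3D and 2D. The genes were CD274, PDCD1LG2, CD276, VTCN1, CD47, PVR, NECTIN2, TNFRSF9 and CD70. They were taken by name, and each was read from the probe sets annotated to it alone, under its current or a former symbol. That gave 30 of the 54675 probe sets on the array and 9 of the 19752 genes with such a probe set. TNFRSF9 encodes 4-1BB, a receptor of activated lymphocytes, and is no ligand. Its ligand is TNFSF9, and its values are given here as those of a receptor.

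The study measured 8 established lung cancer lines (A427, A549 and the H lines H1437, H1703, H23, H358, H460 and H661) with Affymetrix U133 Plus 2.0 arrays. In the 3D group, cells grew on top of a thin coat of Matrigel, a basement membrane extract, under medium with 2% Matrigel. In the 2D group, the same lines grew on tissue culture plastic, at similar density and in similar medium. Each line gave 1 array in 3D and 1 in 2D, so there were 16 arrays and 8 pairs, and a difference within a single line has no replicate. No immune cell was part of either culture, and the arrays measured RNA, not protein on the cell surface.

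PD-L1 (CD274) and PD-L2 (PDCD1LG2) bind PD-1 on T cells and dampen their activation. B7-H3 (CD276) and B7-H4 (VTCN1) are relatives of these ligands, and CD47 binds SIRPA on macrophages and protects a cell from being engulfed. PVR and NECTIN2 are adhesion molecules that bind the inhibitory receptor TIGIT and the activating receptor CD226, and CD70 binds CD27 and costimulates lymphocytes. In tumour cells CD274 is known to be induced by interferon gamma through JAK and STAT signalling and IRF1, and to be gained with its neighbours on chromosome 9.

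Each value is a log2 ratio of a probe set to a reference of its own, so it can be compared between arrays and not between genes. A probe set counted as dim when its median over the 16 arrays lay under that reference, and each gene was represented by its probe set of highest mean. That mean is taken over ratios to the set's own reference, so the choice does not rank probe sets by signal. On this rule 6 members were tested among 13779 genes (CD276, CD47, PVR, NECTIN2, TNFRSF9 and CD70). The representatives of CD274, PDCD1LG2 and VTCN1 were dim, and their tests come from a fit of all 19752 genes without a filter. The other CD274 probe set, 223834_at, passed the filter but was not the representative. Of the 30 probe sets 24 passed the filter and 6 were dim.

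The RefSeq promoters of 4 members, from 250 bases before to 50 after the start in GRCh38.p14, are printed because the RNA of these genes was high in 1 or 2 lines, high on 1 array, or low in 1 line. They run 5′ to 3′ along each gene. Capitals mark matches on either strand to the core of the interferon-stimulated response element (a pair of TTTC blocks 2 bases apart), the AP-1 site TGANTCA or the NF-kB consensus.
CD274, chr9:5450292-5450591, plus strand: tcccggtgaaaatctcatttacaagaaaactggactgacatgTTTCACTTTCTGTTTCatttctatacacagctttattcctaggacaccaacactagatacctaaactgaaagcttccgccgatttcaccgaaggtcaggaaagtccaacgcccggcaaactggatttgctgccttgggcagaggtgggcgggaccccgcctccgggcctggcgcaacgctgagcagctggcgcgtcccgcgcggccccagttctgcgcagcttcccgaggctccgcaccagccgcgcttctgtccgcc
VTCN1, chr1:117210878-117211177, minus strand: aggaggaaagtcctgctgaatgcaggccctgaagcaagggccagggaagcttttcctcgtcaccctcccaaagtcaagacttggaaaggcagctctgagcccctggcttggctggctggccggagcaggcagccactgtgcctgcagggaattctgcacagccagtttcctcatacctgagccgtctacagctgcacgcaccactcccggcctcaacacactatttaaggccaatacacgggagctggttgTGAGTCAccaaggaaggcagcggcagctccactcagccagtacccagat
TNFRSF9, chr1:7940790-7941089, minus strand: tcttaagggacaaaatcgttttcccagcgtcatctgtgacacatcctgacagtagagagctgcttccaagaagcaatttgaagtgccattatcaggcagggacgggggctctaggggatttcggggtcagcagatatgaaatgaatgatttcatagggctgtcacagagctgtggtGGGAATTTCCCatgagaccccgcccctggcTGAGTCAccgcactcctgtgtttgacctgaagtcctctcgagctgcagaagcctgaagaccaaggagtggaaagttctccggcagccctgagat
CD47, chr3:108090982-108091281, minus strand: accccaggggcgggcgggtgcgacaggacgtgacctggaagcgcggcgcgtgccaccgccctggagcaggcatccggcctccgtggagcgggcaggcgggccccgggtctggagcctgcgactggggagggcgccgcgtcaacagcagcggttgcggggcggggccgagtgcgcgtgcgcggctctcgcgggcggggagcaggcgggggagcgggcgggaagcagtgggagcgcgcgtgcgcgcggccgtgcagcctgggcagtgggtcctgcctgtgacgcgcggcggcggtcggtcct
CD274 held 2 overlapping copies of the response element core. At least 1 copy was found in 3.57% of 35116 RefSeq promoters of this length and in no other member's promoter at hand. VTCN1 and TNFRSF9 each held 1 AP-1 match, and 7.71% of promoters held at least 1. TNFRSF9 also held 2 overlapping NF-kB matches, and 11.3% of promoters held at least 1. The CD47 window had none of the 3 motifs. Its 45 CpG dinucleotides compare with 22 in CD274, 8 in TNFRSF9, 7 in VTCN1 and a median of 14 over all promoters. RefSeq promoters were at hand for 7 of the 9 members, CD276 with 2. A match describes letters in this window only.

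More members were called between lines than between cultures, as was the case for all tested genes (78.4% and 6.15%). With culture as a term, 5 of the 6 tested members differed between lines (limma, Benjamini-Hochberg), all but TNFRSF9, against 78.4% of all tested genes. Without a filter it was 8 of 9, against 63.1% of genes, and among probe sets past the filter 21 of 24, against 80.0%.

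**Figure D1:**
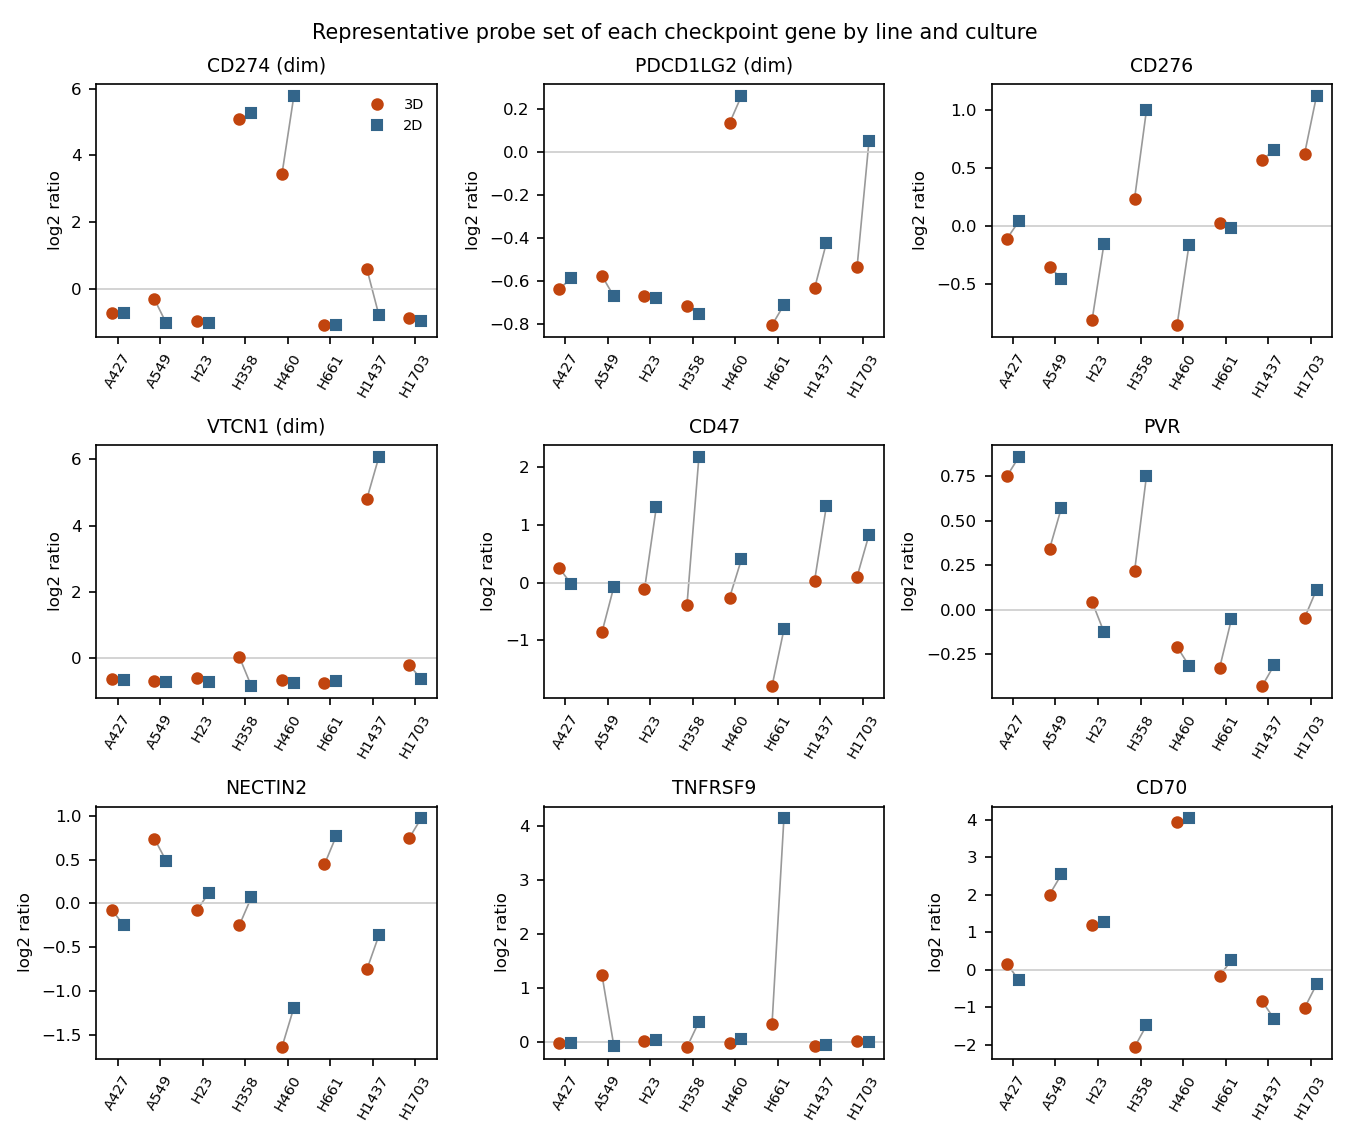
Log2 ratio (y axis) of the representative probe set of each of the 9 genes in the 8 lines (x axis), with 3D as circles to the left of 2D as squares and a line joining the 2 arrays of a line. CD274 stands out in H358 and H460, VTCN1 in H1437, CD70 in H460 and TNFRSF9 on the 2D array of H661.

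CD274 was high in H358 and H460 and low in the other 6 lines. In H358 the representative 227458_at read 5.09 in 3D and 5.28 in 2D, and in H460 it read 3.44 in 3D and 5.78 in 2D. The other lines lay between -1.08 and 0.59 in 3D and between -1.08 and -0.72 in 2D. H358 and H460 were picked out on these same values, so their lack of overlap with the other lines is a description. The mean of H460 exceeded that of the next line, H1437, by 4.71, a 26.2-fold gap, against a 95% margin of 1.52 for a difference between 2 lines (between lines, adjusted p = 6.44e-05 without a filter). Of 13779 tested genes, 43 stood higher in H358 against the mean of the other 7 lines than this probe set did. The tested genes leave out dim ones, and this probe set is dim, so the rank is not one among its own kind. The second probe set, 223834_at, gave the same order at the top, with 1.40 in 3D and 1.93 in 2D in H358, and 1.39 in 3D and 0.58 in 2D in H460 (adjusted p = 0.000502). Its other lines ran from -0.13 to 0.02 in 3D and from -0.21 to 0.11 in 2D.

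Both probe sets thus ranked the same lines first, but they parted on culture within H460. There 227458_at was lower in 3D by -2.35, a size that 31 tested genes exceeded in that line (dim genes not counted). In contrast, 223834_at was higher in 3D by 0.81. H1437 had a reading of 0.59 in 3D and -0.79 in 2D on 227458_at, and 0.02 in 3D and -0.20 in 2D on 223834_at. Over the 8 lines the 3D minus 2D difference of CD274 was -0.03 ± 1.07 (SD, n = 8; adjusted p = 0.960 without a filter), and 0.07 ± 0.38 on the second probe set. PD-L1 RNA did not differ between cultures beyond the spread of the lines, with a 95% interval of -0.79 to 0.72.

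PDCD1LG2, which lies beside CD274, was not high in H358. Its representative 224399_at read -0.72 in 3D and -0.75 in 2D there, among the lowest values of the series. H460 had the highest line mean, with 0.13 in 3D and 0.26 in 2D, and was the one line whose gap to the next, 0.44, exceeded the margin of 0.32 (between lines, adjusted p = 0.00229 without a filter). H1703 read -0.54 in 3D and 0.05 in 2D. The remaining 6 lines ran from -0.80 to -0.58 in 3D and from -0.75 to -0.42 in 2D. The other probe set, 220049_s_at, was dim and nearly flat, with line means between -1.07 and -0.94. On the representatives of the pair of PD-1 ligands, H358 was high in CD274 alone, and H460 ranked high in both. On 220049_s_at H358 came first and H460 in place 6 of 8, and the lines did not differ (limma, adjusted p = 0.789 over all probe sets). The culture difference of PDCD1LG2 was -0.12 ± 0.21 (adjusted p = 0.350).

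The neighbours of CD274 on chromosome 9p24 gave 14 tested genes of a list of 20. In H358, 13 of the 14 stood above the mean of the other 7 lines and 8 by more than 1 (log2), against 37.8% and 11.3% of all tested genes in that line. Their median there was 1.36, against -0.14 for all tested genes. In H460, the other line high in CD274, 7 of 14 stood above the other lines, 0 by more than 1, with a median of 0.09. Over all tested genes in H460 these were 38.6%, 8.52% and -0.10. The genes named here were picked for their place or their value. Close to CD274, PLGRKT, a plasminogen receptor, stood 1.45 above the other lines in H358 and RIC1, a Golgi trafficking factor, 2.11. SLC1A1, a glutamate transporter, was 2.48 higher, and RANBP6, an importin-like protein, 2.22. JAK2, the kinase of the interferon gamma receptor, stood at 0.00 and AK3, a mitochondrial adenylate kinase, at 0.08, while GLDC, the glycine decarboxylase, stood at -2.02. H23 ran the other way, with 0 of 14 above the other lines and a median of -0.99, against 51.6% and 0.02 for all tested genes. H1703 had 2 of 14 above the other lines and a median of -0.56, against 59.2% and 0.08. DNA copy number was not measured, and its part in these values was not tested. Between cultures, RANBP6 rose in 3D by 0.36 ± 0.17 (adjusted p = 0.0388) and AK3 by 0.34 ± 0.23 (adjusted p = 0.0481), 2 of 14 genes, against 2.30% of all tested genes called higher in 3D and 3.85% called lower. ERMP1, an endoplasmic reticulum peptidase, had 0.67 ± 0.66 and the dim MLANA 0.08 ± 0.04 without passing, with a list median of 0.10 against -0.00 for all tested genes.

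**Figure D2:**
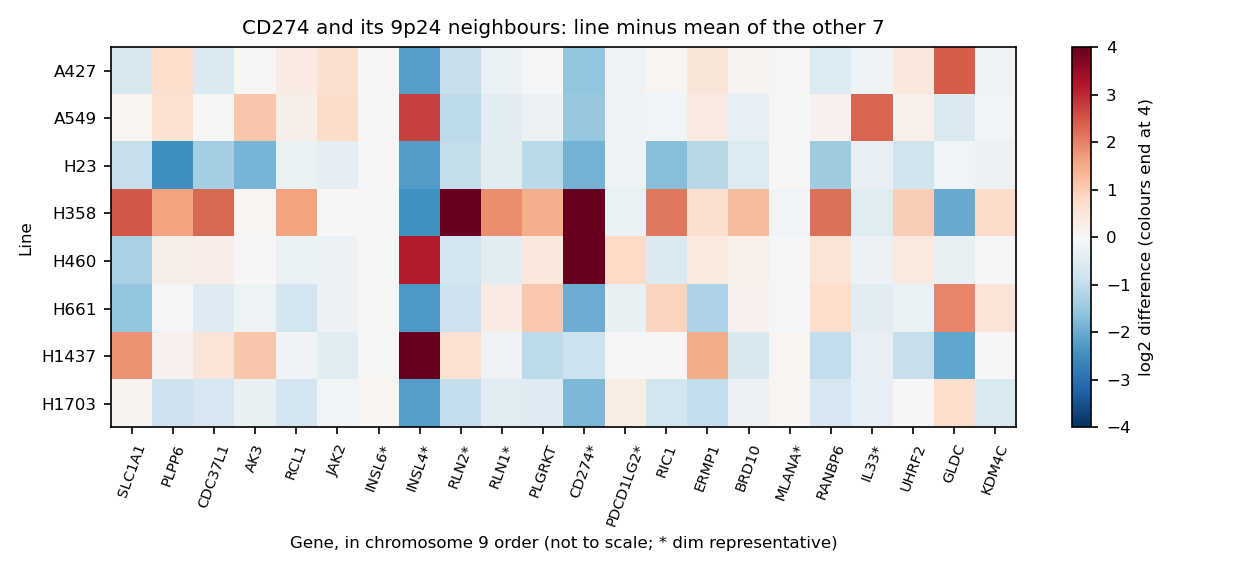
Log2 difference (colour) of each line (rows) from the mean of the other 7 for CD274, PDCD1LG2 and 20 listed neighbours (columns, in chromosome order and not to scale; stars mark dim representatives). The band of high values in H358 runs across CD274 but leaves out JAK2, AK3, PDCD1LG2, GLDC and the dim INSL4, INSL6, MLANA and IL33, and H460 shows CD274 and INSL4 high with little else.

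Of 15 tested genes that interferon gamma induces, 10 differed between lines by limma, against 78.4% of all tested genes. GBP1, an interferon-induced GTPase, had its highest line means in H358 at 4.48 and in H460 at 2.00, with the next line, H1703, at 0.57. NLRC5, the activator of MHC class I genes, was highest in H460 at 3.09 and H358 at 1.53, with H1437 next at 0.73. Other targets did not follow: PSMB9, an immunoproteasome subunit, had 0.64 in H460 and -1.50 in H358, and the guanylate-binding protein GBP5 lay between -0.15 and 0.35 in all 8 lines. Of 15 tested targets, 6 stood more than 1 above the other lines in each of H358, H460 and H1703, against 11.3%, 8.52% and 10.7% of all tested genes, and H1703 was not high in CD274. These genes were chosen as a list, and GBP1, NLRC5, PSMB9 and GBP5 are named after their values were seen. Between cultures 0 of the 15 changed by limma (1 had an unadjusted p under 0.05), against 6.15% of all tested genes, with a median of 0.06. The smallest p values were those of TAPBP at -0.32 ± 0.42, WARS1 at -0.34 ± 0.50, TAP1 at -0.39 ± 0.68 and the dim CXCL11 at 0.07 ± 0.08.

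**Figure D3:**
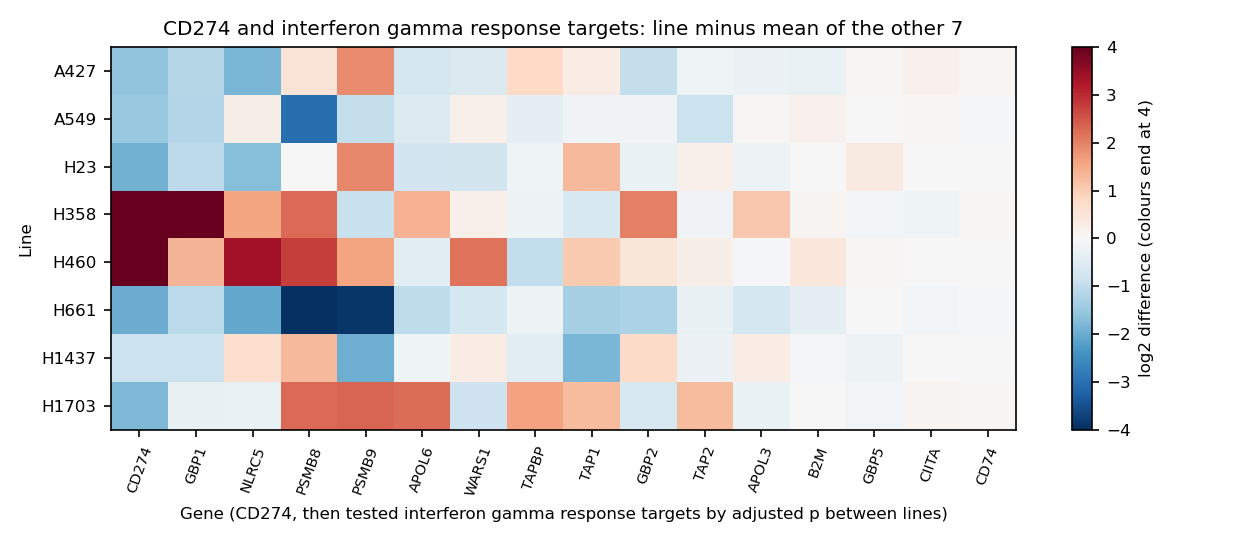
Log2 difference (colour) of each line (rows) from the mean of the other 7 for the CD274 representative and the 15 tested interferon gamma targets (columns). H358 and H460 share high CD274, GBP1, NLRC5 and PSMB8, and the other targets vary without that pattern.

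Upstream of CD274, 1 of 24 tested genes of interferon gamma signalling and induction rose in 3D and 0 fell, against 2.30% and 3.85% of all tested genes. That was IFNGR1, the ligand-binding chain of the interferon gamma receptor, at 0.54 ± 0.41 in 8 of 8 lines (adjusted p = 0.0441). STAT3 had 0.43 ± 0.39, HIF1A 0.20 ± 0.14 and JUN -0.46 ± 0.53, and none of these passed. The list median was 0.04. Among 22 tested genes of trafficking, glycosylation and turnover of PD-L1, 3 fell and 0 rose in 3D, against 3.85% and 2.30% of all tested genes, with a median of -0.14. STT3A, a catalytic subunit of the oligosaccharyltransferase that N-glycosylates proteins, fell by 0.92 (SD 0.53, adjusted p = 0.0188). The deubiquitinase USP22 fell by 0.54 (SD 0.36, adjusted p = 0.0352) and the kinase CDK5 by 0.37 (SD 0.19, adjusted p = 0.0285), each lower in 8 of 8 lines. CDK4, a kinase of the cell cycle, had -0.31 ± 0.24 and did not pass. CMTM6, which keeps PD-L1 at the membrane, had 0.07 ± 0.11 and was named after its value was seen.

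VTCN1 was high in H1437 alone. Its single probe set, 219768_at, read 4.82 in 3D and 6.07 in 2D in that line. The other 7 lines ran from -0.73 to 0.04 in 3D and from -0.83 to -0.62 in 2D. H1437, picked out on these values, stood above them in both cultures. Its mean of 5.44 exceeded that of the next line, H358 at -0.39, by 5.84, a 57.2-fold gap (margin 0.87; between lines, adjusted p = 6.76e-06 without a filter). Of the tested genes, which leave out dim ones such as VTCN1, 33 stood higher in H1437 against the other lines. Within H1437 the 3D reading was lower by -1.25, and in H358 it was higher by 0.87. Over the 8 lines the difference was 0.03 ± 0.60, higher in 6 lines (adjusted p = 0.939).

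CD276 divided the lines in a graded way. On the representative 1559583_at, the 3D arrays had a lowest value of -0.85, a median of -0.04 and a highest of 0.62, and the 2D arrays had -0.45, 0.01 and 1.12. H1703, H358 and H1437 had the highest line means, at 0.87, 0.62 and 0.61, and the third exceeded the next by 0.61 (margin 0.54; between lines, adjusted p = 0.00104). The other probe sets spread further, with a 13.4-fold range of line means on 1552914_a_at and 7.83-fold on 224859_at. Both put H358 first, at 1.72 and 1.68, and H23 last, at -2.02 and -1.29. Order among the other lines was not the same on all 3 probe sets. The break after the first 3 lines was seen on 1559583_at alone, and the other probe sets had a gap beyond their margin after place 4. The 3D minus 2D difference was -0.34 ± 0.35, lower in 6 of 8 lines (adjusted p = 0.116), and the other probe sets gave -0.17 and -0.05, so CD276 did not pass the test between cultures.

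CD47 was very low in H661. On 211075_s_at that line read -5.71 in 3D and -4.02 in 2D, while the other 7 lines ran from -0.80 to 0.72 in 3D and from -1.07 to 0.94 in 2D. On 213857_s_at it read -5.06 in 3D and -3.70 in 2D, and on 226016_at -5.18 in 3D and -3.84 in 2D. These 3 probe sets put H661 30.2, 23.2 and 22-fold under the mean of the other lines. Of 13779 tested genes, 49 lay further below the other lines in H661 than 211075_s_at did. The drop was smaller on 227259_at (4.25-fold), 213055_at (3.19-fold) and the representative 242974_at (3.10-fold). H661 was the lowest line on all 6 probe sets past the filter, and on 5 of them its gap to the next line exceeded the margin, the exception being 242974_at. The dim probe set 213856_at did not set H661 apart. It had line means from -0.32 in H661 to 0.40 in H358, with the 2D arrays of H358 (1.05) and H1437 (0.77) above all others. All 6 differed between lines, with adjusted p from 6.71e-06 to 0.0212 over probe sets, and without H661 the difference on the representative did not pass (adjusted p = 0.278). CD47 protein was not measured.

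**Figure D4:**
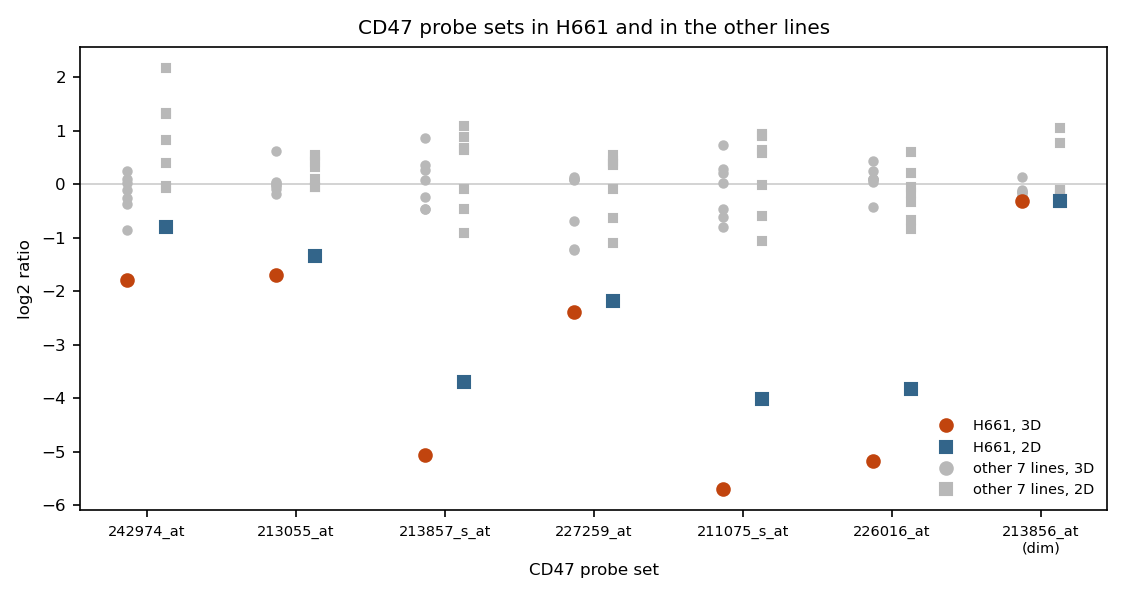
Log2 ratio (y axis) of the 7 CD47 probe sets (x axis) in H661, with 3D as orange circles left of 2D as blue squares, and in the other 7 lines in grey. H661 lies below all grey points of its culture on the 6 probe sets past the filter, by most on 213857_s_at, 211075_s_at and 226016_at.

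The genes flanking CD47 on chromosome 3, looked up after its values were seen, did not share the full drop. Next to it, BBX, an HMG-box protein, stood at -0.22 in H661 against the other lines, and IFT57, a component of intraflagellar transport, at -1.03. Farther out the adhesion molecule ALCAM stood at -2.16, the ubiquitin ligase CBLB at -1.46, the phosphatase inhibitor CIP2A at 0.28 and DZIP3 at 1.09. H661 was also low in the immunoproteasome subunits PSMB8 (-6.18) and PSMB9 (-4.14) and in the keratins KRT8 (-6.64) and KRT18 (-4.60), given as line means and named after their values were seen. H1703 had KRT8 at -6.08 with CD47 at 0.32 on 211075_s_at. The lowest value in the whole series was -6.64, so KRT8 in H661 lay at the lower end of the scale.

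CD47 was the only tested member called between cultures, and only on its representative. On 242974_at the values in 3D were -1.79 at the lowest, -0.19 at the median and 0.25 at the highest, against -0.81, 0.61 and 2.17 in 2D. The groups overlap, yet within lines 3D was lower in 7 of 8, A427 being the exception. The difference was -1.02 ± 0.81, a ratio of 0.493 (adjusted p = 0.0382), and H358 had the widest gap, with -0.38 in 3D and 2.17 in 2D. The other 5 probe sets past the filter gave -0.46, -0.35, -0.35, -0.23 and 0.06, and 0 of them were called (the first 4 were lower in 6 or 7 lines). Averaged over all 6, the difference was -0.39 (adjusted p = 0.0909). The 18S rRNA control was lower in 3D in 8 of 8 lines, by a mean of -1.15, and with its level as a covariate the difference was -0.82 (adjusted p = 0.524). The part of 18S in this result was not tested further. The call also ended on leaving out any single line but A427, with adjusted p from 0.0619 to 0.0902.

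Partners and modifiers of CD47 gave 7 tested genes, of which 1 fell and 0 rose, against 3.85% and 2.30% of all tested genes. QPCTL, the glutaminyl cyclase that modifies the N terminus of CD47 for binding to SIRPA, fell in 3D by 0.36 (SD 0.24, lower in 7 of 8 lines, adjusted p = 0.0460). LRP1, a receptor of engulfment signals, had 0.21 ± 0.21, the chaperone CALR 0.21 ± 0.32 and the integrin chain ITGAV 0.28 ± 0.49. The list median was 0.21.

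PVR ranked highest in A427, H358 and A549. On its representative 32699_s_at the 3D arrays had -0.43, -0.00 and 0.75 as lowest, median and highest values, and the 2D arrays -0.32, 0.03 and 0.86. The line means of A427, H358 and A549 were 0.80, 0.48 and 0.46, and the third exceeded H1703 by 0.42 (margin 0.38; between lines, adjusted p = 0.00102). The same 3 lines came first on 5 of 7 probe sets, but only on the representative did their gap to the next line exceed the margin. The exceptions were 239918_at, which differed little between lines (adjusted p = 0.458), and 1556582_at, on which H1703 came before A427. Between cultures PVR gave -0.14 ± 0.22 (adjusted p = 0.353), and its 6 other probe sets ran from -0.37 to 0.20 with 0 called.

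NECTIN2 was lowest in H460 and highest in H1703 on all 4 probe sets. On the representative 225418_at H460 read -1.64 in 3D and -1.19 in 2D, against 0.75 in 3D and 0.98 in 2D in H1703. In all, the 3D arrays had a median of -0.08 and the 2D arrays 0.10. The gap between H460 and the next line, H1437, was 0.86 (margin 0.42; between lines, adjusted p = 2.25e-05), and the lines spanned 4.87-fold here and 8.49-fold on 232078_at. H460, low in this ligand, was the line highest in CD70 and among those high in CD274. Between cultures the difference was -0.18 ± 0.26 (adjusted p = 0.259). Its probe sets parted in sign: 203149_at was higher in 3D in 7 lines (0.25 ± 0.22) and 232078_at lower in 7 lines (-0.25 ± 0.13), with adjusted p of 0.111 and 0.0573.

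In the nectin and DNAM-1 adhesion family, 0 of 6 tested genes changed between cultures by limma (0 had an unadjusted p under 0.05). The share of all tested genes was 6.15%, and the list median was 0.04. NECTIN3, a binding partner of PVR and NECTIN2, had -0.11 ± 0.52, NECTIN4 0.11 ± 0.47, AFDN, the nectin adaptor, -0.15 ± 0.41 and the dim CRTAM 0.07 ± 0.10. NECTIN3 was the gene most like PVR over the 16 arrays of all 13778 other tested genes, with r = 0.92, followed by PPP2CB and STIP1 at 0.91 each. Its line means ran from 4.08 in A427 to -3.63 in H1437, the lines that were also highest and lowest in PVR. NECTIN2 was closest to TMEM184B and SAMD11 (r = 0.90 each) and MICALL1 (0.88). These correlations count each line with 2 arrays and are descriptions.

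CD70 was graded across the lines in several steps. Its single probe set, 206508_at, read 3.93 in 3D and 4.05 in 2D in H460, 2.00 in 3D and 2.54 in 2D in A549, and 1.19 in 3D and 1.26 in 2D in H23. The other 5 lines lay between -2.06 and 0.15 in 3D and between -1.49 and 0.26 in 2D. Line means were 3.99, 2.27 and 1.23 for the first 3, and each exceeded the next by more than the margin of 0.68, down to H661 at 0.04. Among H661, A427, H1703 and H1437, no line differed from the next beyond it. H358 was last at -1.77, below H1437 by more than the margin. From top to bottom the range was 54.4-fold (between lines, adjusted p = 1.01e-06). The difference between cultures was -0.18 ± 0.44 (adjusted p = 0.490). The genes most like CD70 were QPCT, TMEM178B and ANTXR1, with r of 0.95, 0.95 and 0.93 over 16 arrays. QPCT, the secreted relative of QPCTL, had line means of 6.95 in H460 and 4.48 in A549, followed by H23, the same 3 lines in the same order.

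TNFRSF9 was high on 1 array of 16. Its representative 207536_s_at read 0.33 in 3D and 4.16 in 2D in H661, a difference of -3.82, and only 6 tested genes had a larger one in that line. The next highest reading was in A549, with 1.24 in 3D and -0.08 in 2D, and the remaining lines lay between -0.10 and 0.02 in 3D and between -0.06 and 0.37 in 2D. A second probe set, 211786_at, showed the H661 contrast at a smaller size, with 0.27 in 3D and 1.59 in 2D, but not that of A549 (-0.01 in 3D and -0.02 in 2D). The third, 238950_at, was dim and did not show it, with -0.27 in 3D and -0.26 in 2D in H661. Over the 8 lines the difference was -0.38 ± 1.48 (adjusted p = 0.619), and it was 0.11 without H661. No line differed from the next in order beyond the margin of 2.09, and the test between lines did not pass (adjusted p = 0.261). Its ligand TNFSF9 was highest in A549 and H460, with line means of 2.89 and 2.73 against 0.36 for the next line, and 0.20 ± 0.48 between cultures.

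**Figure D5:**
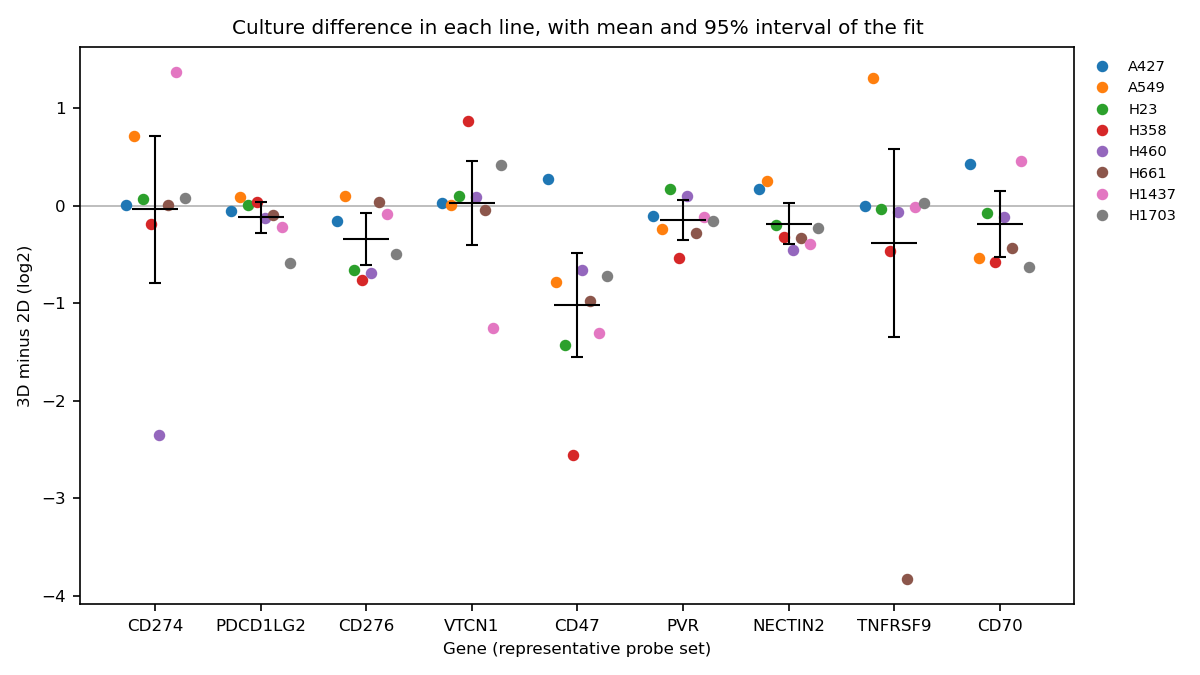
3D minus 2D (y axis, log2) for the representative probe set of each gene (x axis), 1 coloured point per line, with the mean as a black bar and its 95% interval from the fit. The intervals of CD276 and CD47 exclude 0, and single lines set the extremes for CD274 (H460), VTCN1 (H1437) and TNFRSF9 (H661).

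Between cultures, 1 of the 6 tested members was called, CD47, lower in 3D, against 6.15% of all tested genes (2.30% higher and 3.85% lower in 3D). With 6 genes, this count does not set the members apart from all tested genes. Without a filter limma called 0 of 9 (2 at an unadjusted p under 0.05), against 2.13% of genes. Among probe sets past the filter it was 1 of 24, against 8.18%. All 6 tested representatives had a mean below 0, with a median of -0.26, while 50.8% of tested genes were below 0 with a median of -0.00. Of the 24 probe sets, 19 were lower in 3D on average. The members were chosen by name, and probe sets of 1 gene are no independent values.

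A list of other checkpoint ligands, with some receptors and enzymes that act on lymphocytes, gave 19 tested genes of 30. In 3D, 1 rose and 0 fell, against 2.30% of all tested genes higher and 3.85% lower. HLA-E, the ligand of the inhibitory receptor NKG2A on NK and T cells, rose by 0.81 ± 0.66 in 8 of 8 lines (adjusted p = 0.0442). CD58, the ligand of CD2, had 0.40 ± 0.43, IDO1, a tryptophan-degrading enzyme, 0.25 ± 0.33, and CEACAM1, dim and read without a filter, 1.46 ± 1.98. The list median was 0.10. Among 9 tested ligands of NK receptors, 0 changed by limma (1 had an unadjusted p under 0.05), against 6.15% of all tested genes. CLEC2B had 0.70 ± 0.78, ULBP2 -0.35 ± 0.54, NCR3LG1 -0.28 ± 0.81 and MICB -0.18 ± 0.53, and the list median was -0.11.

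Markers of leukocytes, the cells that carry the receptors of these ligands, were mostly dim or flat. Of 15 with a probe set 8 were dim, and PTPRC, the pan-leukocyte phosphatase, had line means between -0.08 and 0.14. Of 7 tested, 2 differed between lines, CD14 and CD53, against 78.4% of all tested genes. Between cultures 0 changed by limma (2 had an unadjusted p under 0.05), against 6.15% of all tested genes, with a median of 0.16. CD14 had 1.01 ± 1.33 between cultures, CD53 0.16 ± 0.12 and the dim CSF1R 0.10 ± 0.11. CD14 had the widest range of lines, from 4.20 in H1437 to -1.38 in H661. A list of leukocyte receptors held those of some members and others that bind other ligands. Of its 13 genes with a probe set, 11 were dim, against 5973 of all 19752 genes. Single lines still held RNA of CD96, at 5.49 in A427, and CD226, at 5.17 in H460, both named after their values were seen. Epithelial markers were uneven, with EPCAM between -6.19 in H460 and 4.33 in H358. Of 7 tested, 0 changed between cultures (0 had an unadjusted p under 0.05, median 0.18), against 6.15% of all tested genes. Of 4 mesenchymal genes the repressor ZEB1 fell in 3D by 0.77 (SD 0.44, lower in 8 of 8 lines, adjusted p = 0.0192), 1 of 4 against 3.85% of all tested genes, and the list median was -0.16.

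The remaining likeness values were those of CD276, CD47 and TNFRSF9. CD276 was closest to FBXO45 (r = 0.91), ZNF706 (0.88) and ODF2L (0.85), and CD47 on its representative to the histone chaperone SET (0.91), the cap-binding protein NCBP1 (0.88) and UBE2O (0.85). TNFRSF9 was closest to INKA2-AS1 (0.92), MMP25 (0.90) and PRORP (0.87), all over the same 16 arrays, and its values rest on the H661 array in 2D. Among the 36 pairs of members, r ran from -0.74 between CD276 and CD70 to 0.56 between PDCD1LG2 and CD70, and CD274 and PDCD1LG2 had 0.36.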

How the data were processed

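RNA of 8 lung cancer lines, each grown in 3D and 2D, was hybridised to Affymetrix U133 Plus 2.0 arrays from 200 ng of total RNA, per the labels' protocols. The authors deposited log2 values, 1 per array for each of 54675 probe sets. Over the arrays, 63.5% of the sets had a median at the reference (within 0.001) and none above it, so the reference was the probe set's own median or, for dim ones, a higher value. How the authors summarised and normalised the probes to reach these log2 values is not given in the sources used here. Array medians lay between -0.28 and -0.07. The lowest value in the series was -6.64, and the lowest line means given for PSMB8, KRT8 and EPCAM lie at or near it. Arrays give no read depth, so their number limits the precision.

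Genes came from the platform annotation (41097 probe sets with 1 symbol, 1801 with several, 11777 with none), brought up to date through RefSeq (GRCh38.p14). Each gene was represented by its set of highest mean over the arrays, and 5973 genes whose representative was dim were left out, leaving 13779. Limma 3.58.1 in R 4.3.3 (lmFit, eBayes with trend) was fitted over all arrays with culture and cell line. The line named in the labels is the pair, and replicate numbers pair nothing. Calls needed a Benjamini-Hochberg adjusted p under 0.05 over all genes fitted. For culture, p-values measure the spread over lines of the difference between cultures, and errors are SDs of that difference over 8 lines. Between lines, p-values rest on how far the cultures of a line disagree after the mean culture difference. Different cultures thus stand in for replicates of a line, and no line was replicated within a culture. The margin of a difference between 2 lines is the 95% interval of the fit to all probe sets. It holds for 2 lines named in advance. The gaps were found after sorting the lines on the same values, so a gap beyond the margin is a description. The fits were tested on simulated data.

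The members and gene lists were chosen with earlier results of these data known. Named genes were all members, the 4 genes of smallest p in each list, called ones among them, and the 3 genes of highest Pearson r with each tested member. Other genes, among them neighbours of CD274 and CD47, interferon gamma targets, CMTM6, PSMB8, keratins, CD96, CD226, TNFSF9, PTPRC and EPCAM, were named for their place or role or after their values were seen. Alternatives changed the representative, the filter, the normalisation, a floor at -3, the variance model, the 18S level, the block and the lines.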

Additional observations from a re-analysis of the deposited data

Results flagged for a closer look

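For each member the 8 lines were examined in 3D, in 2D and as 3D minus 2D, 27 groups in all, for 1 line far from the other 7. The criterion picks out about 1 in 20 groups of independent normal values, and 9 of the 27 met it. The 3 groups of a member share their arrays, and the share over all tested genes was not computed. The rate of 1 in 20 is therefore no baseline for this count. In CD274 the H460 difference was -2.35, with no other line below -0.19. In PDCD1LG2 the H1703 difference was -0.58 and the H460 level in 3D was 0.13, above the other lines. VTCN1 gave 3, all from H1437, with 4.82 in 3D, 6.07 in 2D and a difference of -1.25. TNFRSF9 also gave 3, namely 1.24 in A549 in 3D, 4.16 in H661 in 2D and a difference of -3.82 in H661.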

How the results depend on the processing

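Over all genes, 848 were called between cultures, and 421 with no filter, 516 with the filter at the 40th percentile, 2260 over probe sets and 155 to 921 on leaving out 1 line. With the 18S level as a covariate 0 were called by limma (1359 with an unadjusted p under 0.05). Without the cell line as a replicate block 1 was called (493 unadjusted), and the pairing rests on the labels. Among members, the count of 1 became 0 with the mean of probe sets, no filter, the 18S covariate or no replicate block, and was 0 to 1 on leaving out 1 line. For CD47 the call ended at -0.39 (mean of probe sets, adjusted p = 0.0909), -1.02 (no filter, 0.0716), -0.82 (18S, 0.524) and -1.02 (no replicate block). It also ended on leaving out any single line but A427 (adjusted p from 0.0619 to 0.0902). Over all fits without 1 line, the CD47 difference ran from -1.20 to -0.80. CD274 turned to 0.074 with the mean of probe sets and with the highest median, and PVR to 0.022 on omitting s and x probe sets. On leaving out 1 line TNFRSF9 ran from -0.62 to 0.11, the last without H661. Apart from these, the 6 tested members kept their direction and side of the threshold between cultures. CD274, PDCD1LG2 and VTCN1 were refitted only where the filter or the choice of probe set let them in. The cause of these moves was not tested.

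Between lines, 10807 genes were called, 22095 over probe sets and 10300 to 10531 on leaving out 1 line. The member count of 5 became 8 with no filter, which adds 3 members, and was 4 to 5 on leaving out 1 line. CD47 was lost without H661 and without the culture term (adjusted p = 0.230), and PVR on omitting s and x probe sets (0.458). With 1 array per line and culture, single-line contrasts have no replicate check.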
